A study of Mus musculus with 6 samples.

Results

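The TGFβ ligands and the genes that hold, release and report on them were examined in the RNA of macrophages (MPs) sorted from injured mouse skeletal muscle. The group was chosen by name and comprised 10 genes, Tgfb1, Tgfb2, Tgfb3, Inhba, Ltbp1, Ltbp3, Ltbp4, Thbs1, Tgfbi and Furin. Of these, 9 had values among the 13008 genes of the table, and Tgfb2 was not analysed here.

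TGFβ is made as a long precursor that is cut by proprotein convertases such as furin, yet the mature dimer stays wrapped in its own propeptide as an inactive latent complex. Latent TGFβ binding proteins (LTBPs) attach this complex to the extracellular matrix, and integrins, thrombospondin 1 or proteases free the ligand from it. In injured muscle, MPs are a known source of latent TGFβ, which acts on fibroblasts, endothelial cells and the MPs themselves through receptor kinases and SMAD proteins.

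The study compared MPs from Control mice, labelled wild type, with MPs from Tg:LysMCre::Cripto-/- mice, called Cripto KO, in 3 samples each. Cripto is a cell surface protein that binds TGFβ family ligands, and the comparison asks what its loss from myeloid cells does to the transcriptome of the MPs that infiltrate the muscle. All animals were C57BL/6J mice aged 3 months and labelled male, and all received cardiotoxin, a venom toxin that destroys muscle fibers, in leg muscles 5 days before the F4/80+ Ly6C-low cells were sorted. The LysM promoter drives Cre in monocytes, MPs and neutrophils, so the deletion is not limited to MPs. The study describes sorted cells that carried a LysMCre-driven GFP reporter in both groups, whereas the labels give the Control genotype only as wild type. The study calls the samples biological replicates, the labels do not say how many mice gave each, and the tests measure the spread between these samples. The deleted gene, Tdgf1, was not analysed here, so its level did not check the genotype labels.

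The libraries held between 12688968 and 14141773 reads in Control and between 14633880 and 15659847 reads in Cripto KO samples. Each value is a number of reads per 1000000 reads of the normalized library, and 3 reads correspond to a value between 0.222 and 0.286. Correlations between libraries across genes ran from 0.961 to 0.972 within Control, from 0.972 to 0.975 within Cripto KO and from 0.961 to 0.969 between groups. In 2 Control libraries single genes stood apart. Control replicate 1 had Xist at 171 against at most 0.885 elsewhere, and Ddx3y, Eif2s3y, Kdm5d and Uty, all on the Y chromosome, at 0.184 or less, although its label says male. Control replicate 2 had Lyz2, the gene that carries the LysM promoter, at 11066 against 21.2 to 28.3 in the other libraries. In Lyz2, Control replicates 1 and 3 (25.2 and 21.4) were at the level of the Cripto KO samples (21.2, 28.3 and 26.6). Which Control libraries carried LysMCre was not tested. Each member below is therefore also given without Control replicate 1 and without Control replicate 2. MP markers were abundant in all 6 samples, with C1qa the highest and summed levels of 9948 to 10256 in Control and 9239 to 10178 in Cripto KO for the 9 listed genes, none of which had an unadjusted p under 0.05.

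Sequences of the ligands are shown first, since the processing of the ligand protein is what Furin and the release genes act on. All were read from the GENCODE M21 transcripts on GRCm38. In each ligand, the 4 codons in capitals spell a convertase cleavage motif, an arginine, any residue, a lysine or arginine and an arginine. The motif covers codons 275 to 278 of 390 in Tgfb1, codons 297 to 300 of 412 in Tgfb3 and codons 305 to 308 of 424 in Inhba. Each is printed with the bases on either side, and the whole printed stretch lies at chr7:25697220-25697261 on the plus strand for Tgfb1, at chr12:86062039-86062080 on the minus strand for Tgfb3 and at chr13:16026752-16026793 on the plus strand for Inhba.
Tgfb1 cleavage site: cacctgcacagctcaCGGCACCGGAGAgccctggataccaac
Tgfb3 cleavage site: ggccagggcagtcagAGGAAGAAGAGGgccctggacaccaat
Inhba cleavage site: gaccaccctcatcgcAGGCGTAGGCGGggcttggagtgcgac

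Downstream of the motif lie 112 codons in both Tgfb1 and Tgfb3 and 116 in Inhba, which are the mature ligands. In Inhba a second, overlapping match begins 1 codon earlier. The mature coding sequences of Tgfb1 and Tgfb3 were identical at 73.5% of their bases. The second set of sequences shows the arginine-glycine-aspartate codons in capitals, the motif in the propeptide that αV integrins grip to free the ligand. They are codons 244 to 246 of Tgfb1 and codons 261 to 263 of Tgfb3. With the bases printed on either side, the stretches lie at chr7:25697127-25697165 on the plus strand and at chr12:86062150-86062188 on the minus strand.
Tgfb1 integrin site: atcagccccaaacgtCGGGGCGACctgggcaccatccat
Tgfb3 integrin site: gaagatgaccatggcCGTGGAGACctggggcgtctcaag

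Among the ligands, Tgfb1 had by far the highest level per kilobase of exon, Tgfb3 was low, and Inhba had few reads. Tgfb1, on chromosome 7 from 25687002 to 25705077, encodes the main TGFβ of immune cells. Its normalized values were 443, 509.8 and 481 in Control replicates 1 to 3 and 437, 455 and 442 in Cripto KO replicates 1 to 3. The groups overlapped, with Control replicate 1 inside the Cripto KO range, and the Cripto KO samples lay closer together (445 ± 9.49, SD, n = 3) than the Control samples (478 ± 33.5, SD, n = 3). In the limma fit, the log2 ratio of Cripto KO to Control was −0.10 (SE 0.07, 95% confidence interval −0.26 to 0.06, adjusted p = 0.726). The interval allows a decrease to 0.835 of the Control level or an increase to 1.04 of it. The ratio became −0.15 when Control replicate 1 was left out and −0.05 when Control replicate 2 was.

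Tgfb3, on chromosome 12 from 86056745 to 86079041, encodes a ligand of the same receptors that is made mainly by mesenchymal cells. It was read at 18.6, 9.80 and 8.20 in Control against 12.1, 11.4 and 13.1 in Cripto KO, from 100 to 252 reads a library. Control replicate 1 was the highest and the other Control libraries the lowest, so that all Cripto KO values fell inside the Control range. Its log2 ratio was 0.09 (SE 0.26, 95% confidence interval −0.50 to 0.69, adjusted p = 0.947 in limma). This value rested on Control replicate 1, since without it the log2 ratio was 0.44 (unadjusted p = 0.0155, adjusted p = 0.352 in limma), whereas without Control replicate 2 it was −0.02, without Control replicate 3 −0.15 and without Cripto KO replicate 3 0.04.

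Inhba, on chromosome 13 from 16011851 to 16031621, encodes the βA subunit of activin A, which signals through activin receptors to the same SMADs as TGFβ. The values were 1.73, 1.10 and 2.16 in Control against 0.921, 1.38 and 1.76 in Cripto KO, which rest on 14 to 26 reads a library. The groups overlapped. The coefficient of variation over the 6 samples was 30.7%, against 23.0% from counting error alone. The log2 ratio of −0.29 (SE 0.38, adjusted p = 0.863 in limma) had a 95% confidence interval from −1.14 to 0.56. The interval allows a decrease to 0.453 of the Control level or an increase to 1.47 of it. With Control replicates 1, 2 and 3 left out in turn the log2 ratio was −0.24, −0.57 and −0.08. With Cripto KO replicates 1, 2 and 3 left out it was −0.04, −0.33 and −0.51.

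**Figure D1:**
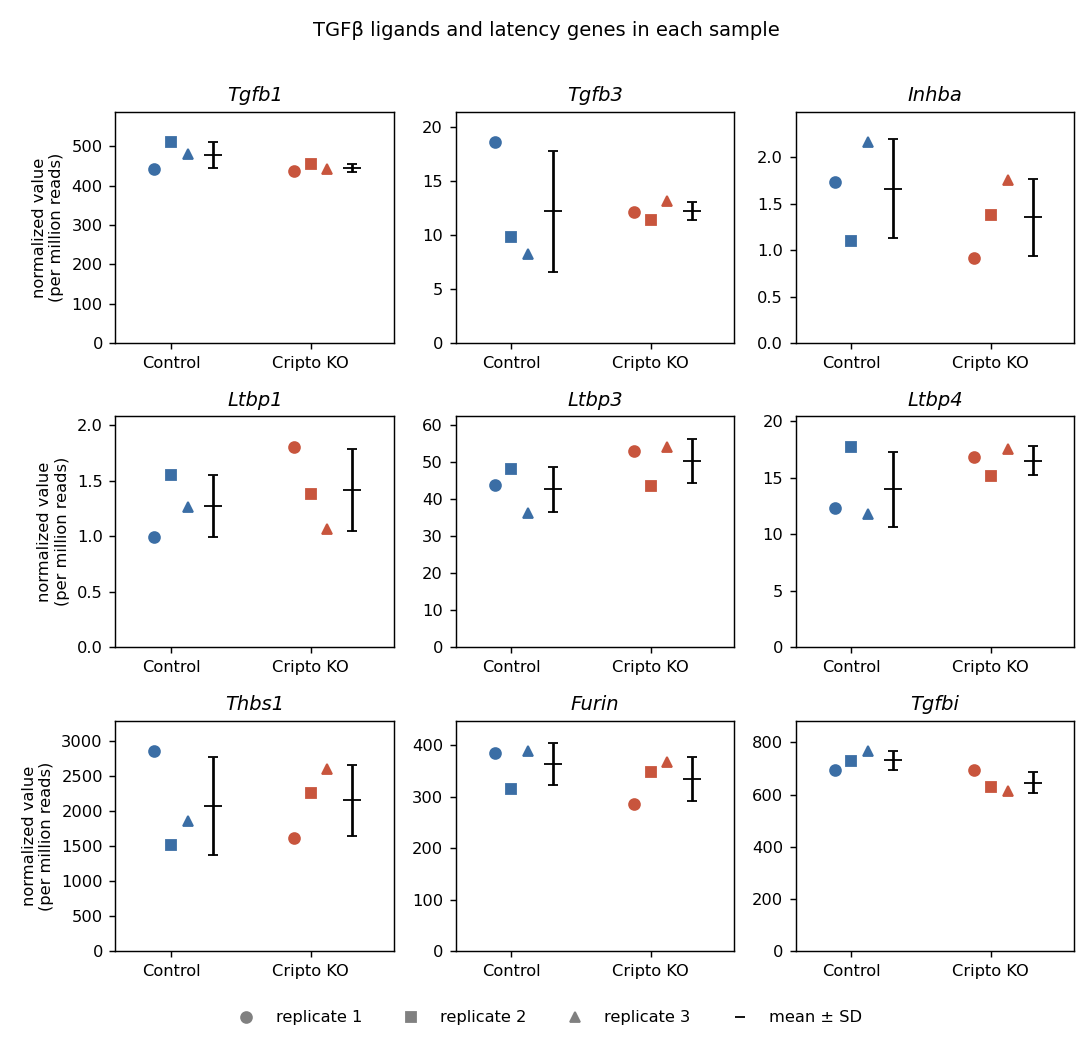
Normalized values of the 9 genes (reads per 1000000) in each of the 3 Control and 3 Cripto KO samples, with 1 panel per gene, a symbol for each replicate and bars for the group mean ± SD. Values of Tgfbi in the Cripto KO samples (616 to 693) all lie below the Control values (696 to 768), and in the other 8 panels the groups overlap.

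Among the LTBPs, Ltbp3 had the highest level per kilobase and Ltbp1 the lowest. Ltbp3 and Ltbp1 bind the latent complexes of TGFβ1 and TGFβ3, and Ltbp4 binds the TGFβ1 propeptide more weakly and organizes elastic fibers. Ltbp3, on chromosome 19 from 5740904 to 5758532, was at 43.8, 48.2 and 36.2 in Control against 53.2, 43.6 and 54.3 in Cripto KO. Replicates 1 and 3 of Cripto KO were above all Control samples and Cripto KO replicate 2 was not. Its log2 ratio was 0.24 (SE 0.12, 95% confidence interval −0.04 to 0.52), with an unadjusted p of 0.0852 and an adjusted p of 0.652 in limma. Omitting Control replicates 1, 2 and 3 in turn gave 0.26, 0.33 and 0.13, and omitting Cripto KO replicates 1, 2 and 3 gave 0.20, 0.34 and 0.18.

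Ltbp4, on chromosome 7 from 27305136 to 27337692, showed the same order of samples within Cripto KO. Its values were 12.3, 17.7 and 11.8 in Control against 16.9, 15.1 and 17.5 in Cripto KO. Control replicate 2 was the highest of all 6, and the other Control samples were below every Cripto KO sample. For this gene the log2 ratio was 0.26 (SE 0.16, 95% confidence interval −0.10 to 0.63, adjusted p = 0.696 in limma). Without Control replicate 2 it was 0.45 (unadjusted p = 0.00738, adjusted p = 0.472 in limma), and without Control replicates 1 and 3 it was 0.19 and 0.16. Ltbp1, on chromosome 17 from 75005568 to 75392512, had only 13 to 28 reads a library. Its values of 0.994, 1.55 and 1.26 in Control against 1.81, 1.38 and 1.07 in Cripto KO varied by 22.7% over the 6 samples, and counting error alone gives 24.1%. The log2 ratio was 0.15 (SE 0.34, 95% confidence interval −0.62 to 0.92, adjusted p = 0.932 in limma), and its sign turned without Control replicate 1 (−0.01) and without Cripto KO replicate 1 (−0.04). Without Control replicate 2 it was 0.31 and without Cripto KO replicate 3 it was 0.34.

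Thbs1 had the highest level per kilobase of the 9 genes and a wide spread between samples. It encodes thrombospondin 1, a secreted protein that activates latent TGFβ by binding its propeptide, and lies on chromosome 2 from 118111876 to 118127133. The values were 2865, 1519 and 1857 in Control against 1611, 2254 and 2598 in Cripto KO. The highest and the lowest sample were both Control. Over the 6 samples its coefficient of variation was 25.8%, against 0.601% from counting error (20075 to 38913 reads), so the libraries differed far beyond counting error. Its log2 ratio was 0.07 (SE 0.24, 95% confidence interval −0.46 to 0.61, adjusted p = 0.955 in limma). Dropping Control replicates 1, 2 and 3 in turn gave 0.33, −0.13 and 0.02, and dropping Cripto KO replicates 1, 2 and 3 gave 0.27, 0.03 and −0.07. Platelets store thrombospondin 1 and TGFβ1. Of 7 platelet markers, 3 had values and none had an unadjusted p under 0.05. Their sum was 562 to 685 in Control and 648 to 731 in Cripto KO, and nearly all of it was Pf4, which MPs also express, while Itga2b had 4 to 16 reads. The part of platelets in the Thbs1 and Tgfb1 values was not tested.

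Furin, on chromosome 7 from 80388585 to 80405436, encodes the convertase whose motif is capitalized in the cleavage sites above, and its own transcription is induced by TGFβ. It was at 384, 316 and 389 in Control against 286, 348 and 367 in Cripto KO. Replicates 1 and 3 of Control were the highest, Cripto KO replicate 1 was the lowest, and Control replicate 2 lay among the Cripto KO samples. Its log2 ratio was −0.12 (SE 0.11, 95% confidence interval −0.38 to 0.13, adjusted p = 0.799 in limma). Leaving out Control replicates 1, 2 and 3 in turn gave −0.08, −0.22 and −0.07, and leaving out Cripto KO replicates 1, 2 and 3 gave −0.02, −0.16 and −0.20.

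Tgfbi was the 1 member whose groups did not overlap. It encodes a secreted, integrin-binding matrix protein first found as a gene induced by TGFβ, and lies on chromosome 13 from 56609523 to 56639562. Its values were 696, 728 and 768 in Control against 693, 630.3 and 616 in Cripto KO. Cripto KO replicate 1 was just under Control replicate 1, and the group means were 731 ± 36.1 and 646 ± 41.0 (SD, n = 3 each). For this gene the log2 ratio was −0.18 (SE 0.07, 95% confidence interval −0.35 to −0.01). In limma the unadjusted p was 0.0394 and the adjusted p was 0.548, so it did not pass the test over all genes. The limma fits lacking Control replicates 1, 2 and 3 gave −0.21, −0.18 and −0.14 (unadjusted p = 0.0205, 0.0723 and 0.144). Those lacking Cripto KO replicates 1, 2 and 3 gave −0.23, −0.16 and −0.14 (unadjusted p = 0.0171, 0.103 and 0.1475).

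Over the 9 genes, 0 were called at an adjusted p under 0.05 in limma, a threshold passed by 0.131% of all genes (17 of 13008), and edgeR and DESeq2 on the recovered reads called 0 members as well. At an unadjusted p under 0.05, 1 of 9 members (11.1%) was counted, against 8.59% of all genes. It was lower in Cripto KO, as were 4.60% of all genes. Separation of the 3 Cripto KO from the 3 Control values held for the same 1 gene, against 14.5% of all genes in either direction and 8.02% in its direction. With 9 genes, shares of this size are near those of all genes. Of the 9 log2 ratios, 5 were above 0 and 4 below, with a median of 0.07, whereas 47.4% of all genes were above 0 and their median was −0.01.

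The library left out decided which members were near the threshold. Without Control replicate 1, 3 members had an unadjusted p under 0.05 in limma, which 10.5% of all genes then had. They were Tgfb1 (−0.15), Tgfb3 (0.44) and Tgfbi (−0.21). Without Control replicate 2, Ltbp3 (0.33) and Ltbp4 (0.45) were the 2 members counted, and 7.97% of all genes had such a p. No adjusted p of a member was under 0.05 in either case.

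**Figure D2:**
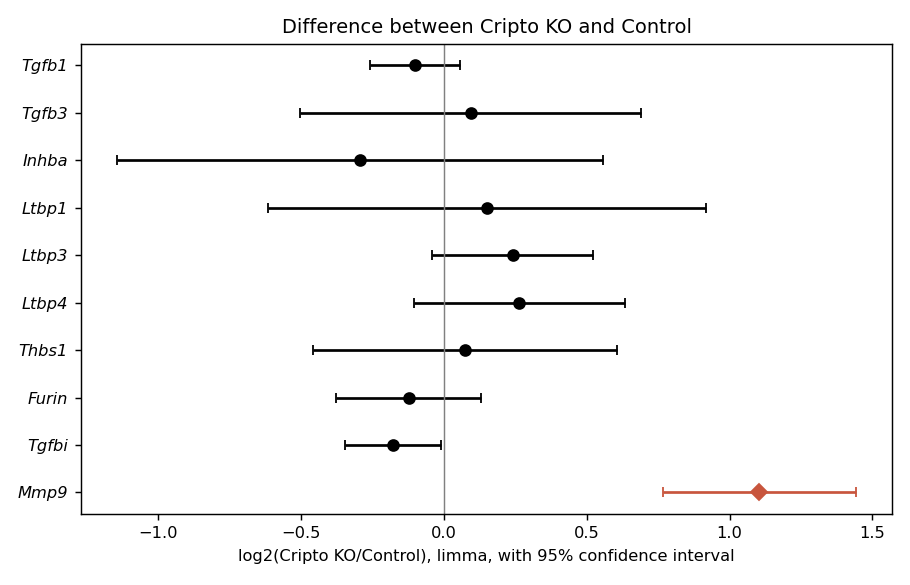
Log2 ratio of Cripto KO to Control for the 9 genes from limma over all 6 samples, with 95% confidence intervals as bars, and for Mmp9, the 1 other pathway gene called, as a diamond. Among the 9, every interval except that of Tgfbi (−0.35 to −0.01) includes 0, and those of Inhba (−1.14 to 0.56) and Ltbp1 (−0.62 to 0.92) are the widest.

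Levels of different genes were compared per kilobase of exon, with overlapping exons of a gene merged. Thbs1 was first at 349 ± 89.9 per kilobase (SD over 6 samples), followed by Tgfbi at 183 ± 15.3, Tgfb1 at 91.5 ± 5.65 and Furin at 37.9 ± 4.43. The ranges of these neighbours over the 6 samples did not overlap. A second tier held Ltbp3 at 5.13 ± 0.747, Tgfb3 at 3.61 ± 1.06 and Ltbp4 at 2.36 ± 0.407 per kilobase. Here the range of Tgfb3 overlapped both of its neighbours, so its place was not resolved by range. The ranges of Ltbp3 (3.99 to 5.99) and Ltbp4 (1.82 to 2.75) did not overlap each other. Inhba at 0.236 ± 0.0724 and Ltbp1 at 0.126 ± 0.0286 came last, and their ranges overlapped too. Against the 12989 genes with a known length, the levels of Thbs1, Tgfbi, Tgfb1 and Furin exceeded those of 98.6%, 97.5%, 95.4% and 90.2% of genes. Those of Ltbp3, Tgfb3 and Ltbp4 were near the middle (58.6%, 50.7% and 41.2%), and Inhba and Ltbp1 exceeded only 7.19% and 3.30%. The order was the same when the length of the longest transcript was used.

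**Figure D3:**
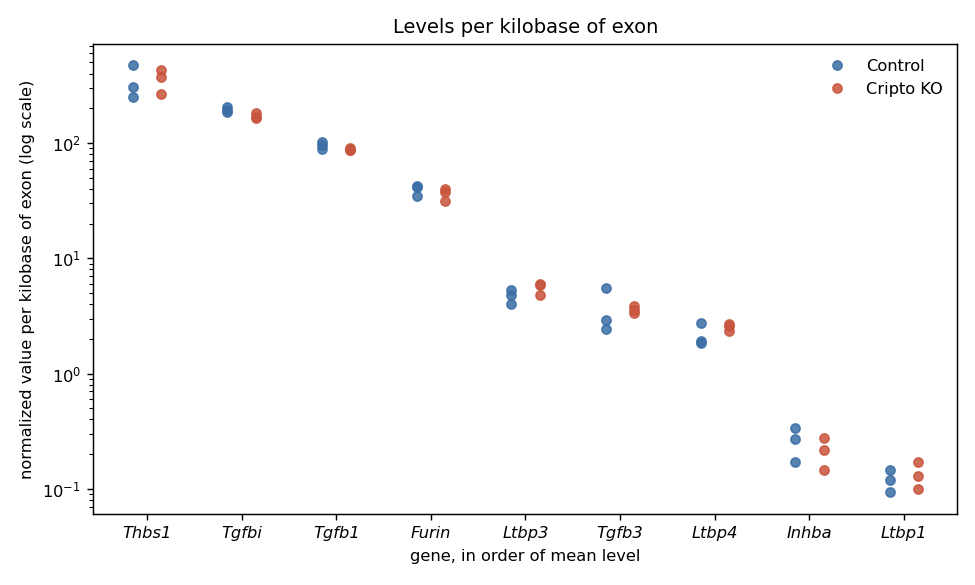
Level per kilobase of merged exon (log axis) of the 9 genes in the 6 samples, ordered by mean. Thbs1, Tgfbi, Tgfb1 and Furin form the upper tier and Inhba and Ltbp1 lie at the bottom, with Control and Cripto KO ranges overlapping for each gene except Tgfbi.

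The makeup of each family overlapped between the genotypes. Of the length-scaled sum of Tgfb1 and Tgfb3, Tgfb1 made 96.3% ± 1.89 in Control and 96.1% ± 0.316 in Cripto KO (SD, n = 3 each). The lowest share, 94.1%, was that of Control replicate 1, which had the highest Tgfb3. Of the sum of the LTBPs, Ltbp3 made 67.6% ± 3.00 in Control and 67.3% ± 1.06 in Cripto KO. Ltbp4 made 30.7% ± 2.78 and 31.1% ± 0.985, and Ltbp1 1.71% ± 0.321 and 1.62% ± 0.432. All these ranges overlapped between groups. The sum of the 3 LTBPs per Tgfb1 was 7.78%, 8.11% and 6.22% in Control replicates 1 to 3. In Cripto KO replicates 1 to 3 it was 9.97%, 8.06% and 10.0%. Only Cripto KO replicate 2 was inside the Control range, and no test was made of this ratio, which was chosen after the values were seen. The ratio covers the LTBPs alone. It leaves out Nrros of the latency anchor list, which was at 71.5 per kilobase against 91.5 for Tgfb1. Thbs1 per Tgfb1 ranged from 2.47 to 5.37 in Control and from 3.06 to 4.88 in Cripto KO.

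Some members shared high and low samples within the groups as well. The highest correlation on the log2 scale over the 6 samples was that of Furin with Inhba (Pearson r = 0.974, Spearman rho = 0.943), and it was 0.971 after the group means were removed. Ltbp3 and Ltbp4 had r = 0.865 (rho = 0.771). Ltbp1 ran opposite to Furin (r = −0.896) and to Thbs1 (r = −0.894), and Tgfb1 opposite to Tgfb3 (r = −0.685). These are descriptions over 6 libraries that share their normalization, and Inhba and Ltbp1 rest on few reads. Among 7729 genes with a mean value of at least 10, those with the profile most like Tgfb1 were Mpc1 (r = 0.994), a mitochondrial pyruvate carrier subunit, Slc17a5 (r = 0.993), a lysosomal sialic acid exporter, and Zfp992 (r = 0.989), a zinc finger gene. With 6 samples such values are common, and 190 of these genes had r over 0.9 with Tgfb1.

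**Figure D4:**
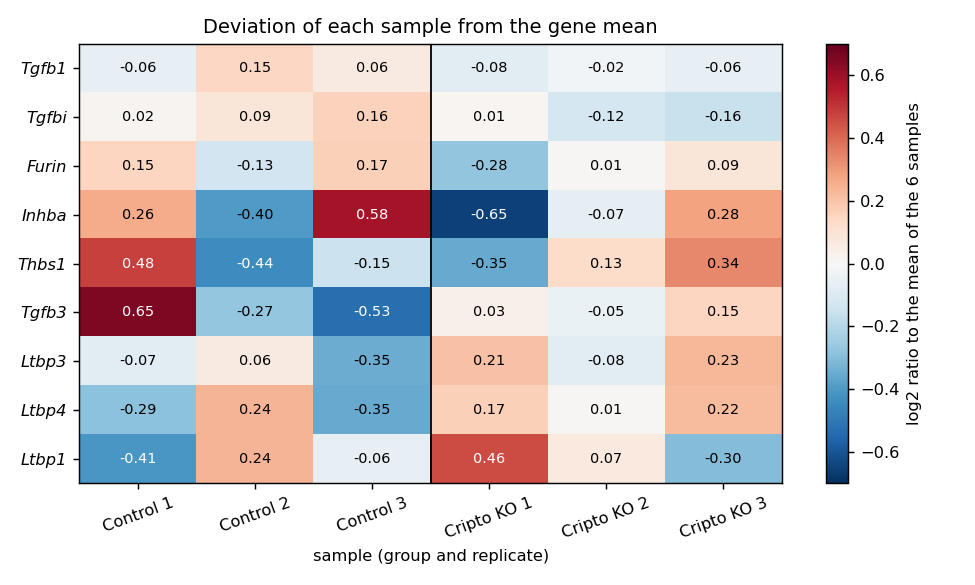
Log2 ratio of each sample to the mean log2 value of the gene over all 6 samples, for the 9 genes (rows) in the 3 Control and 3 Cripto KO samples (columns). Control replicate 1 is high for Thbs1 and Tgfb3, and Furin and Inhba share their high and low samples.

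The rest of the pathway was followed through 80 listed genes, of which 66 had values. In limma 1 of the 66 passed an adjusted p under 0.05, against 0.131% of all genes. At an unadjusted p under 0.05, 8 of the 66 were higher, against 3.99% of all genes, and 1 was lower, against 4.60%. Both directions together made 13.6% of the 66 and 8.59% of all genes. No overlap of the groups was found for 9 of the 66 higher, against 6.43% of all genes, and for 1 lower, against 8.02%. Together these made 15.2% of the 66 and 14.5% of all genes. The median log2 ratio of the 66 was 0.06. Without Control replicate 1, the number at an unadjusted p under 0.05 was 16 of the 66, against 10.5% of all genes. The genes fall into 6 lists by role, and 7 of them are in 2 lists.

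Mmp9, which encodes a gelatinase able to cleave latent TGFβ, was the 1 gene that passed. It is in the list of processing and release proteases, of which 7 of 10 had values, with a median log2 ratio of 0.04. Mmp9 was at 15.2, 22.4 and 21.9 in Control against 39.3, 45.6 and 41.5 in Cripto KO. All Cripto KO values were above all Control values, with means of 42.1 ± 3.16 and 19.9 ± 4.03 (SD, n = 3 each). The log2 ratio was 1.10 (SE 0.15, adjusted p = 0.0313 in limma). It was 0.92 or more in each of the 17 alternatives, with adjusted p from 1.395e-09 to 0.296 across limma, edgeR and DESeq2 fits and under 0.05 in 10 of them. In limma it was 0.113 without Control replicate 3 and 0.0835, 0.223 and 0.147 without Cripto KO replicates 1, 2 and 3. Neutrophils store this enzyme. Of 7 neutrophil markers 6 had values, with summed levels of 98.6 to 106 in the Control libraries and of 93.2 to 101 in those of Cripto KO, nearly all from Csf3r, which MPs also express. The others were near the floor. S100a9 and Retnlg had 0 reads in all 6 samples. S100a8, at 8 to 22 reads a library, was 0.694 to 1.07 in Control and 1.17 to 1.55 in Cripto KO without overlap (log2 ratio 0.52), and the log2 ratios of Mpo (1 to 20 reads) and Cxcr2 (6 to 16 reads) were 1.32 and 0.37. None of the 6 had an unadjusted p under 0.05, and the part of neutrophils in the Mmp9 values was not tested.

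Receptors and latency anchors held no gene with an unadjusted p under 0.05. Of 10 receptors with values, Tgfbr1, the type I TGFβ receptor, had the smallest p (log2 ratio −0.19, unadjusted p = 0.0681, adjusted p = 0.625 in limma). Of 9 latency anchors and integrins, Itgb5, which pairs with αV to bind latent TGFβ, had the smallest (−0.18, unadjusted p = 0.0583, adjusted p = 0.602 in limma). Without Control replicate 1 both had an unadjusted p under 0.05 (Tgfbr1 0.0405 and Itgb5 0.0110), whereas without Control replicate 2 their log2 ratios were −0.09 and −0.11 (unadjusted p = 0.260 and 0.210 in limma). Of 18 SMADs and their regulators, Tgif2, a repressor that binds SMADs, was higher (0.48, unadjusted p = 0.0207, adjusted p = 0.510 in limma), and the median was −0.05.

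The extracellular binders and other subunits had 10 of 11 log2 ratios above 0, against 47.4% of all genes, and a median of 0.17. An unadjusted p under 0.05 was found for Dcn (0.43) and Bgn (0.26), proteoglycans that bind TGFβ, and for Htra1 (0.42), a secreted protease that degrades it. Among 18 SMAD target genes, 3 were higher at such a p, Ctgf (0.65), Col3a1 (0.31) and Col1a1 (0.25). The cell cycle inhibitor Cdkn1a (−0.27) was the 1 lower gene, and the median of the 18 was 0.03. Of all genes, 3.99% were higher at such a p and 4.60% lower. The adjusted p of the 7 genes named here lay between 0.373 and 0.578 in limma, so none passed.

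**Figure D5:**
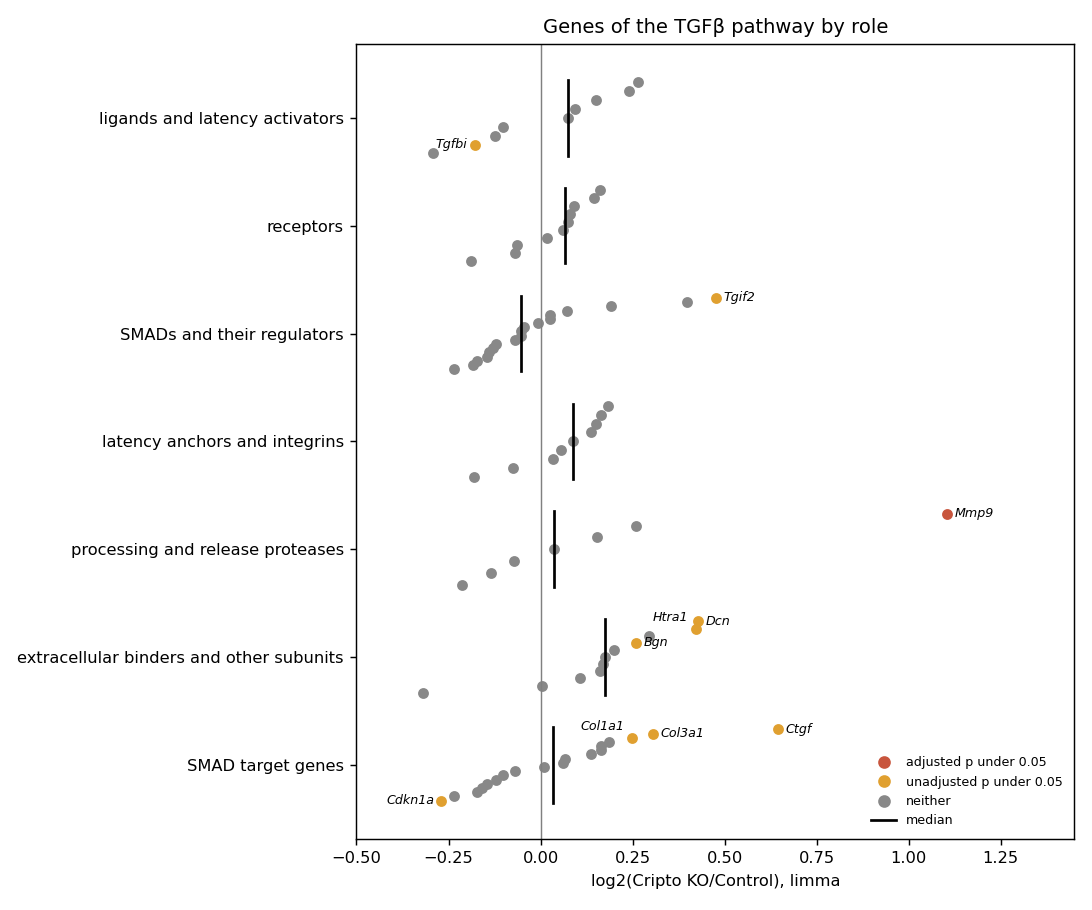
Log2 ratio of Cripto KO to Control for each gene of the members' list and the 6 pathway lists, with the list median as a bar. Mmp9 at 1.10 is the 1 gene with an adjusted p under 0.05, and of the 10 genes of unadjusted p under 0.05, Tgfbi included, Tgif2 alone is in the receptor, anchor or SMAD lists.

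Of these genes, Dcn, Col1a1 and Col3a1 are also in the list of fibroblast markers. All 8 fibroblast markers had a log2 ratio above 0, as did 47.4% of all genes, and their median was 0.24. At an unadjusted p under 0.05, 6 of them were higher (Pdgfra, Col1a1, Col1a2, Col3a1, Dcn and Postn), as were 3.99% of all genes. The adjusted p of these 6 in limma lay between 0.373 and 0.571, and Pdgfra had 5 to 18 reads a library. Col1a1 had the highest level of the 8 markers. Their summed level was 529 to 558 in Control and 623 to 680.4 in Cripto KO, so the groups did not overlap. The log2 ratios of Ltbp3 and Ltbp4, which fibroblasts also make, had the same sign as this list, and the part of fibroblast RNA in them was not tested. In sorted bulk cells, more cells of a type and more RNA per cell cannot be told apart.

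Markers of the remaining cell types were read in the same way. At an unadjusted p under 0.05 in limma, 3.99% of all genes were higher and 4.60% lower. Of 7 muscle fiber markers, of which Acta1 was the highest, 4 were lower at such a p (Myh4, Myh1, Ckm and Tnnt3). In that order they had 1 to 245, 0 to 55, 16 to 191 and 29 to 108 reads a library. Their adjusted p lay between 0.493 and 0.579 in limma. Of the 7 log2 ratios, 5 were below 0 and 2 above, and Acta1 was at −0.28 (unadjusted p = 0.528 in limma). The sum of the 7 was 33.7 to 70.7 in Control and 18.0 to 52.9 in Cripto KO, so the groups overlapped. Of 5 pericyte markers, led by Rgs5 (−0.14), Acta2 was higher (0.33, unadjusted p = 0.0253, adjusted p = 0.523 in limma). Of the 5 log2 ratios 3 were above 0 and 2 below, and the sums overlapped (34.0 to 46.8 in Control, 34.1 to 47.1 in Cripto KO). Of 8 lymphocyte markers, 2 had values. Cd4, at 913 to 1291 reads a library, was lower (−0.29, unadjusted p = 0.0289, adjusted p = 0.529 in limma). The other had 0 to 2 reads, so the list rests on Cd4 alone and does not show lymphocyte content. Endothelial markers, led by Pecam1, and Ly6C-high monocyte markers, led by Ccr2, held no gene with an unadjusted p under 0.05, with sums of 52.1 to 61.1 and 83.0 to 109.6 in Control and of 52.7 to 59.2 and 91.1 to 105 in Cripto KO. The part of these cells in the members' values was not tested.

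The members share little sequence with other genes. Between 0% and 1.96% of the 31-base words of a member's transcripts also occurred in another gene, with the highest share in Furin. Exons of Thbs1 and Furin overlap those of Gm29233 and Gm44851 on the opposite strand. The library kit does not mark strand, so reads from the overlap cannot be told apart. The values of Gm29233 and Gm44851 were under 1 in both group means, far below those of Thbs1 and Furin.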

How the data were processed

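Total RNA of sorted MPs was sequenced in 3 Control and 3 Cripto KO samples, grouped by their labels. The authors prepared unstranded libraries, trimmed the reads (cutadapt 1.7.1), kept those of at least 30 bp, estimated transcript abundance with RSEM 1.2.20 on GRCm38 (release 91) and normalized with limma. The values they deposited are a normalized signal: 0.5 was added to the reads of a gene, which were then scaled to 1000000 reads of library after normalization. Dividing by the smallest value of a sample recovered whole reads for 100.0% of 78048 values (tolerance 0.01 read). Low genes therefore carry counting error, and limits at 3 reads cover that alone.

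The main test was limma 3.58.1 (R 4.3.3; lmFit, then eBayes with its trend option) applied to log2 values with no pseudocount or filter, with Benjamini-Hochberg adjustment over 13008 genes. It was tested on simulated data. Alternatives were pseudocounts of 0.5 and 1, a mean of at least 1, median centring, quantile normalization, eBayes without trend or robust, voom, edgeR 4.0.16, DESeq2 1.42.0, a replicate block, each sample left out, and longest transcripts. Lengths and coding sequences came from GENCODE M21. The members and lists were chosen with earlier results of these data known. Named are all members, the genes of each pathway list at an unadjusted p under 0.05 or else the one with the smallest p, in each marker list the highest gene and those at that p, and the 3 genes most correlated with Tgfb1. Nrros, Itga2b, S100a9, Retnlg and the antisense neighbours were named after their values were seen. Tgfb2 and Tdgf1 were not analysed here. Not every gene that overlaps a member is reported here.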

Additional observations from a re-analysis of the deposited data

How the results depend on the processing

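No member was called at an adjusted p under 0.05 in limma or under any of the 17 alternatives, edgeR and DESeq2 included. The 1 member at an unadjusted p under 0.05 became 0 with quantile normalization, eBayes without a trend, edgeR and the replicate block, and 0 to 3 on leaving out 1 sample. The 17 genes called overall became 6 with quantile normalization, 5 without a trend, 31 with robust eBayes, 9 with voom, 71 with DESeq2, 2 with the replicate block and 5 to 31 on leaving out 1 sample. The 1 pathway gene called, Mmp9, became 0 with quantile normalization (adjusted p = 0.0772), without a trend (0.296) and with the block (0.0572), and 0 to 1 on leaving out 1 sample, where it was lost without Control replicate 3 or any 1 Cripto KO sample. The 9 pathway genes at an unadjusted p became 7 to 16 on leaving out 1 sample, with 16 without Control replicate 1. Same-numbered samples had correlations of −0.495, −0.05 and −0.244 in their deviations from the group means over 7730 genes. Deviations from a mean of 3 samples sum to 0, so these correlations cannot decide whether samples were paired. The replicate numbers are those of the labels. The study also lists the Controls in another order, in which the correlations were 0.364, −0.282 and 0.435, and the block was run on the label numbers alone. The sign turned only on leaving out 1 sample, for Tgfb3 (−0.15 to 0.44, negative without Control replicates 2 or 3), Ltbp1 (−0.041 to 0.34, negative without replicate 1 of either group) and Thbs1 (−0.13 to 0.33, negative without Control replicate 2 or Cripto KO replicate 3). With longest transcripts the Tgfb1 share was 98.01% against 96.2% and Thbs1 per Tgfb1 was 2.04 against 3.85. Both of these follow from the shorter Tgfb1 length, and the cause of the other changes was not tested. Inhba and Ltbp1 rest on few reads, 14 to 26 and 13 to 28 a library.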
